A study of Mus musculus with 2 samples.

Results

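The activity-dependent immediate early genes described here are Fos, Fosb, Junb, Egr1, Arc, Npas4, Nr4a1, Bdnf and Ier2. They were chosen by name, 9 of the 21755 protein-coding genes that GENCODE release M21 places on the 20 chromosomes of the boundary list. The rule that chose them uses no measured value, although earlier results of these data were known when the set was proposed. The measurement was in situ Hi-C, which joins and counts pieces of DNA that lie close together in fixed nuclei, in flow-sorted mature olfactory sensory neurons of the adult mouse olfactory epithelium. All cells came from 1 group, in which OMP-Cre deletes Ldb1, a cofactor that links transcription factors, so that no control genotype was analysed here. The Cre acts under a gene of mature olfactory neurons, so deletion is a late event in the life of these cells. Per the labels the mice were of mixed sex and the strain was not specified, and the labels used here do not say how many animals were pooled. There were 2 biological replicates of 1000000 cells each, and their contacts had been pooled before boundaries were called, so values below have no replicate error. The list holds 7610 bins of 5 kb (4022 strong, 3588 weak). A boundary is a bin that few contacts cross, and its strength is the authors' score for that bin, with no unit. Bins of the strong class all score above 0.5 and the weak ones do not. The stretch between neighbouring boundaries is called a domain, and its length runs from the end of one bin to the start of the next. The contacts behind each boundary are not given, so the precision of single strengths is unknown. A boundary list holds no RNA values and cannot show whether these genes were active or whether other cells were present.

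Immediate early genes are switched on by existing transcription factors within minutes of a stimulus, without new protein synthesis. In neurons, calcium entry activates kinases that phosphorylate CREB and the partners of serum response factor, which sit at the promoters and enhancers of these genes. In the olfactory epithelium, odorant binding raises cyclic AMP and calcium in the sensory neuron, and transcripts such as Fos and Egr1 are widely used to mark neurons that have recently responded.

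None of the 9 genes began at a boundary. A transcription start site (TSS) inside a boundary bin, or no more than 10 kb away, was taken as at the boundary, which held for 0 of 9 members against 14.3% of all protein-coding genes. That background corresponds to between 1 and 2 genes of 9. The nearest was Fos, whose TSS lay 16.1 kb from a boundary bin. Npas4 followed at 24.7 kb and Ier2 at 27.9 kb. Nr4a1 (75.7 kb), Fosb (85.0 kb), Arc (87.4 kb) and Egr1 (95.2 kb) lay within 20 kb of each other in distance, and Junb (144 kb) and Bdnf (205 kb) were the farthest. The median distance was 85.0 kb for the members and 56.6 kb over all protein-coding genes (interquartile range 23.3 to 105 kb). Of all genes 19.4% lay nearer to a boundary than Fos did, and 92.0% lay nearer than Bdnf. No member had a gene body that overlapped a boundary bin, whereas 16.2% of all protein-coding genes did. Most members are short, with a median length of 5.16 kb against 17.4 kb, and 7 of 9 lay below the median of all genes.

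**Figure D1:**
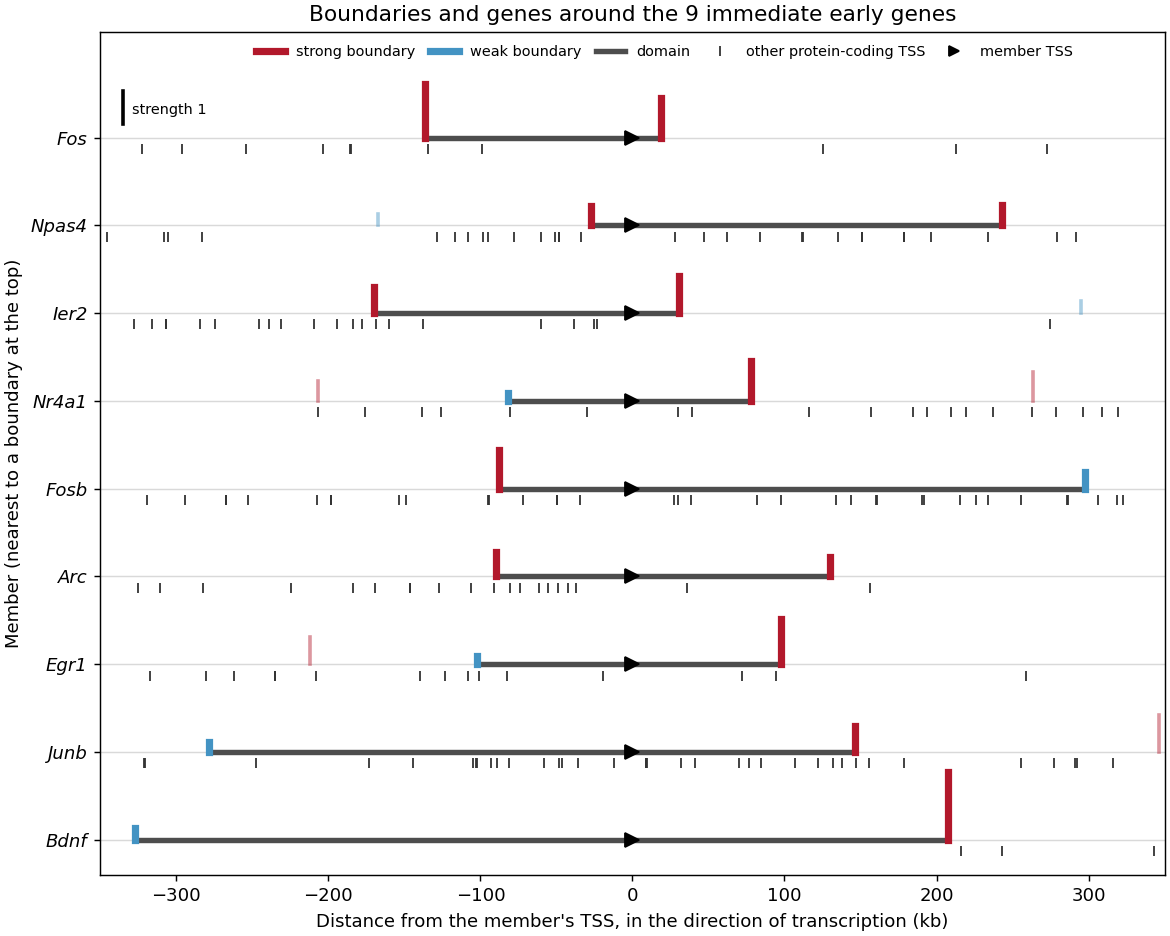
Each row shows 350 kb on either side of a member's TSS (arrowhead), in the direction of transcription, with boundaries drawn at the centre of their bins as bars whose height is the strength, other protein-coding TSSs as ticks and the domain as a dark line; faint bars are boundaries that do not flank the member. Fos, Npas4 and Ier2 sit close to one end of their domains, and the domain of Bdnf holds no other tick.

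**Figure D2:**
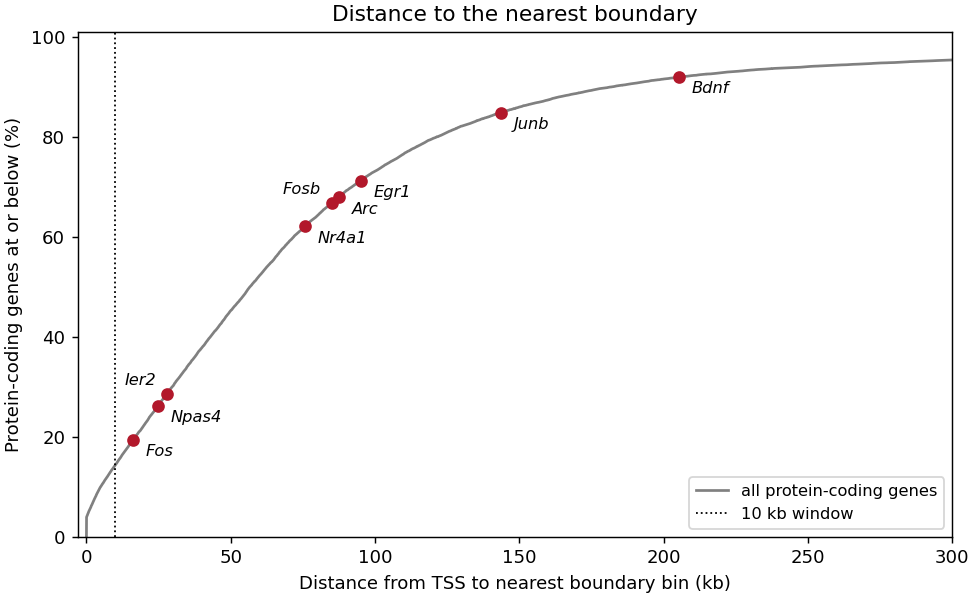
Cumulative share of protein-coding genes (%) against the distance from TSS to nearest boundary bin (kb), with the 9 members as points and the 10 kb window dotted; 990 genes beyond 300 kb are outside the axis. All members lie to the right of the 10 kb line, from Fos at 16.1 kb to Bdnf at 205 kb.

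The genes of the AP-1 transcription factor come first. AP-1 is a dimer of a Fos and a Jun protein. Fos (chromosome 12, 85473890 to 85477273, plus strand, GRCm38; 4 exons) lay in the shortest of the member domains, 150 kb long. Its upstream boundary (85335001 to 85340000) had a strength of 1.62, overlapped an exon of Nek9, which encodes a mitotic kinase, and contained the Nek9 TSS. Its downstream boundary (85490001 to 85495000) had a strength of 1.19 and was intergenic, 12.7 kb past the 3′ end of Fos. The Fos TSS stood at 89.3% of the domain counted from the left. Tmed10, which encodes a cargo receptor of the early secretory pathway, was the only other protein-coding gene that began in the domain, and its TSS was 99.0 kb from that of Fos. The nearest TSS to the downstream boundary was that of Fos itself.

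Fosb (chromosome 7, 19302696 to 19310051, minus strand), which encodes a second partner of Jun proteins, had a very different neighbourhood. Its domain was 380 kb long and held 21 other protein-coding TSSs, 17 on the left of Fosb and 4 on the right. The strong boundary (1.14; 19395001 to 19400000) lay 85.0 kb upstream and overlapped exons of Ercc2 and Klc3. The weak one (0.490; 19010001 to 19015000) lay 295 kb downstream in an exon of Foxa3, 5.96 kb from the TSS of Irf2bp1. On the right the neighbours were the DNA repair genes Ercc1 (34.7 kb) and Ercc2 (72.0 kb), with Cd3eap and Ppp1r13l 49.4 and 49.7 kb away. On the left the nearest were Rtn2 (27.4 kb), Ppm1n (29.99 kb), the actin regulator Vasp (38.2 kb) and Opa3 (81.7 kb).

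Junb (chromosome 8, 84974484 to 84978718, minus strand; 1 exon) lay in the most gene-rich of the 9 domains. That domain was 420 kb long and held 26 other protein-coding TSSs, more than the domains of 94.2% of protein-coding genes. The nearest were those of Rnaseh2a (8.95 kb), which encodes the catalytic subunit of RNase H2, Prdx2 (9.13 kb), a peroxiredoxin, Gm49661 (9.28 kb) and Rtbdn (31.7 kb) on one side. On the other side they were Hook2 (11.9 kb), Best2 (35.8 kb), Asna1 (46.6 kb) and Trir (48.1 kb). The downstream boundary was strong (0.778; 84830001 to 84835000), lay 144 kb away and contained the TSS of Gadd45gip1. The upstream boundary was weak (0.295; 85255001 to 85260000), lay 276 kb away and was intergenic, 29.0 kb from the TSS of the olfactory receptor gene Olfr371.

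Egr1, Nr4a1 and Npas4 encode transcription factors of other classes. Egr1 (chromosome 18, 34859823 to 34864984, plus strand), a zinc finger protein, stood near the middle of its domain, at 51.2% of 195 kb. A weak boundary (0.257; 34755001 to 34760000), which contained the TSS of Fam53c, lay 99.8 kb upstream. A strong one (1.34; 34955001 to 34960000) lay 95.2 kb downstream and 0.64 kb from the TSS of Hspa9, a mitochondrial chaperone gene. The 4 other genes of the domain were Reep2 (19.2 kb from Egr1), the histone demethylase gene Kdm3b (82.8 kb upstream), Etf1 (72.2 kb), which encodes a translation termination factor, and Hspa9 (94.5 kb).

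Nr4a1 (chromosome 15, 101254269 to 101274795, plus strand), an orphan nuclear receptor gene, was also near the middle of a short domain, at 51.1% of 155 kb. Its upstream boundary (0.237; 101170001 to 101175000) was the weakest of all those that flank the members and contained the TSS of Acvr1b, an activin receptor gene. The downstream boundary (1.20; 101330001 to 101335000) was strong and intergenic, with the keratin gene Krt80 as the nearest TSS at 35.2 kb. The domain also held Grasp (30.1 kb), the autophagy gene Atg101 (30.003 kb) and 6030408B16Rik (38.9 kb), all on the strand of Nr4a1. A second start of Nr4a1, 12.6 kb inside the gene, was 63.2 kb from the strong boundary.

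Npas4 (chromosome 19, 4984355 to 4990316, minus strand; 8 exons) encodes a bHLH-PAS protein that in neurons responds mainly to calcium entry. Both flanking boundaries were strong and close in score. The upstream one (0.591; 5015001 to 5020000) was 24.7 kb away and 3.86 kb from the TSS of the nucleoside transporter gene Slc29a2. The downstream one (0.615) was 240.3 kb away and 6.50 kb from the TSS of Rbm4b. Npas4 was the last protein-coding gene before the upstream boundary: all 13 others of its 265 kb domain lay downstream, beginning with Mrpl11 (28.2 kb), Peli3 (47.2 kb), Dpp3 (62.0 kb) and Bbs1 (83.7 kb).

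Arc and Bdnf act at synapses rather than on transcription. Arc (chromosome 15, 74669083 to 74672570, minus strand; 3 exons), which encodes a protein that moves into dendrites and regulates AMPA receptors, lay in a 215 kb domain between strong boundaries. The upstream one (0.723; 74760001 to 74765000) was 87.4 kb away and contained the TSS of Ly6d. The downstream one (0.567; 74540001 to 74545000) was 128 kb away in an exon of the adhesion receptor gene Adgrb1. Mroh4 (36.2 kb) lay downstream of Arc. Upstream came Jrk (37.0 kb), Psca (42.3 kb), Them6 (48.6 kb), Slurp1 (55.5 kb), Lypd2 (61.8 kb), Slurp2 (74.1 kb) and Lynx1 (80.5 kb), of which Psca, Slurp1, Lypd2, Slurp2 and Lynx1 belong to the Ly6 superfamily.

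Bdnf (chromosome 2, 109674700 to 109727007, plus strand), which encodes brain-derived neurotrophic factor, was the only member with a domain of its own. The domain was 530 kb long, longer than those of 85.1% of protein-coding genes, and no other protein-coding gene began in it. Only 5 non-coding genes or pseudogenes did. Its downstream boundary (2.04; 109880001 to 109885000) was stronger than 97.5% of the list and stood 205 kb from the TSS. The next protein-coding TSS, that of Lin7c at 216 kb, lay 5.85 kb beyond that bin. The upstream boundary (0.351; 109345001 to 109350000) was weak and 325 kb away, with Mettl15 as the nearest TSS at 64.3 kb. With strong boundaries alone the Bdnf domain grew to 1885 kb and held 2 other protein-coding genes. Bdnf is known for its many alternative promoters, and 9 annotated protein-coding starts, spread over 34.7 kb, all lay in this one domain, between 171 and 205 kb from the strong boundary.

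Ier2 (chromosome 8, 84661331 to 84662852, minus strand; 1 exon) encodes a nuclear protein and was the shortest member at 1.52 kb. It stood at 14.3% of a 195 kb domain, 27.9 kb from the downstream boundary (1.10; 84630001 to 84635000), which overlapped an exon of the calcium channel gene Cacna1a. The upstream boundary (0.778; 84830001 to 84835000) was 167 kb away. The 6 other genes all lay upstream: Trmt1 (23.5 kb), Nacc1 (25.0 kb), Lyl1 (38.6 kb), G430095P16Rik (60.2 kb), Nfix (137 kb) and Dand5 (160.0 kb). Ier2 and Junb are 316 kb apart, and the bin upstream of Ier2 is the one downstream of Junb, so their domains adjoin at that boundary. The 9 members therefore have 17 distinct flanking boundaries.

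Each member had at least 1 strong flank, and the nearer flank was strong in all of them. The nearest boundary was strong for 9 of 9 members against 63.3% of all protein-coding genes, a comparison chosen after the values were seen. The scores of those nearest boundaries ran from 0.591 (Npas4) to 2.04 (Bdnf), with a median of 1.14 against 0.659 over all genes. At a strength of at least 1 the count was 6 of 9 against 27.4% of all genes. Both flanks were strong for Fos, Arc, Npas4 and Ier2, and 1 flank for Fosb, Junb, Egr1, Nr4a1 and Bdnf. Over all genes with a domain, 37.2% had 2 strong flanks, 49.1% had 1 and 13.7% had none. The 17 flanking boundaries had a median strength of 0.723 against 0.538 in the list, and 12 of 17 were strong against 52.9% of all boundaries. Flanks of genes in general score higher than the list. Counted by gene, 62.2% of upstream and 61.3% of downstream flanks were strong over all genes with a domain, with medians of 0.647 and 0.626.

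Flanks were also compared by their side of the gene, again after the values were seen. The downstream flank was strong in 8 of 9 members (61.3% over all genes), with a median of 1.10 against 0.626. The upstream flank was strong in 5 of 9 (62.2% over all genes), with a median of 0.591 against 0.647. Fosb was the member with a weak downstream flank. The nearest boundary lay downstream of the TSS for Fos, Junb, Egr1, Nr4a1, Bdnf and Ier2 and upstream for Fosb, Arc and Npas4. Over all protein-coding genes the nearest boundary lay downstream for 46.2%, 3.86% began in a bin, and for the rest it lay upstream. In 9 genes, 6 downstream and 3 upstream is close to an even split. These counts rest on 9 genes, 2 of which share a boundary, and on 1 pooled list.

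**Figure D3:**
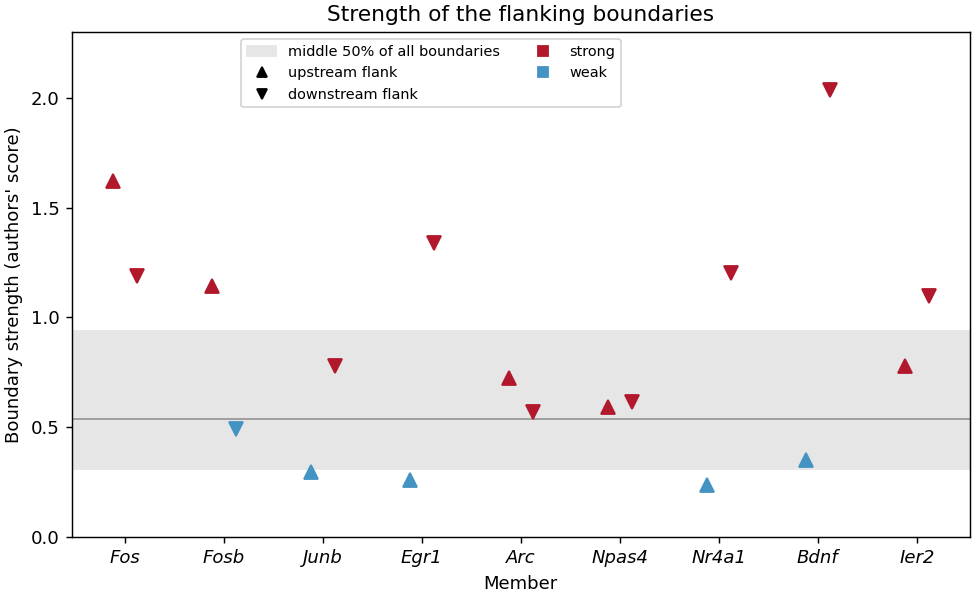
Strength of the upstream (triangle up) and downstream (triangle down) boundary of each member, in the authors' score, coloured by class, with the middle 50% of all 7610 boundaries shaded and their median as a line. Egr1, Nr4a1 and Bdnf pair a weak upstream flank with a downstream flank above 1.

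Junb and Fosb had the domains with most genes, and Bdnf the longest and emptiest one. The median domain length was 215 kb (range 150 to 530 kb) against 270 kb over the 20713 genes with a domain, and 6 of 9 lay below that median, close to an even split. The number of other protein-coding TSSs ranged from 0 (Bdnf) to 26 (Junb), with a median of 6 against 5. Per Mb of domain the median was 35.9 protein-coding genes against 21.1, and 7 of 9 members lay above, with Fos (13.3) and Bdnf (1.89) below. The median GC content of the domains was 47.1% against 44.1% over all genes with a domain, and 8 of 9 lay above, with Bdnf (39.8%) below. The nearest other protein-coding TSS was a median of 28.2 kb away against 21.9 kb over all genes, from 8.95 kb (Junb) to 216 kb (Bdnf). For 7 of 9 members it was farther away than the median over all genes.

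**Figure D4:**
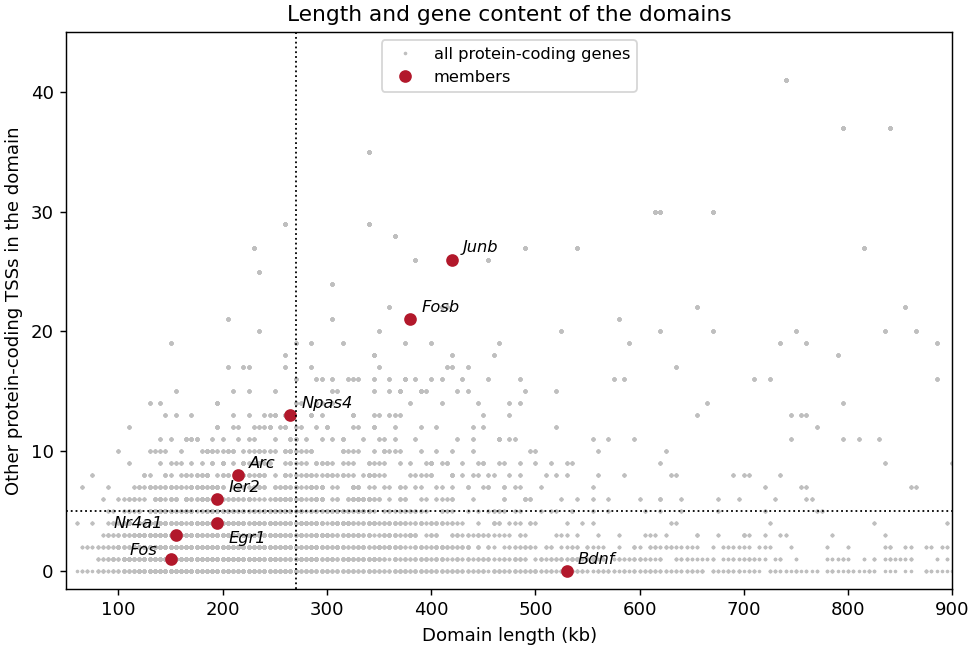
Domain length (kb) and number of other protein-coding TSSs in the domain, for all protein-coding genes (grey) and the members (red), with dotted lines at the medians of all genes, 270 kb and 5; 1209 genes are outside the axes. Junb and Fosb are in long, gene-rich domains, Fos and Nr4a1 in short domains with few genes, and Bdnf is alone in a long one.

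CTCF, a DNA-binding protein that halts loop extrusion by cohesin, often marks boundaries, and loops often form between sites that point towards each other. Its 12-letter consensus was searched on both strands around the flanking boundaries. A match lay within 10 kb of 4 of the 17, against 24.4% of all boundaries. No member domain had a match near both of its flanks, against 7.88% of all domains, and 5 of 9 had one near neither, against 58.9%. The 6 matches at these 4 boundaries are shown because their strands differ, read 5′ to 3′ on the strand of the match, with the consensus in capitals and 9 bases on either side (GRCm38).
Fos downstream boundary, left of the bin, chr12:85487919-85487948, minus strand: ctcccacaaCCACCAGGTGGCagagatgct
Fos downstream boundary, right of the bin, chr12:85496909-85496938, plus strand: gagatactaCCAGCAGAGGGCgctcttcag
Fosb upstream boundary, right of the bin, chr7:19405544-19405573, plus strand: acgaaaccgCCACCAGATGGCactgcgggt
Fosb upstream boundary, right of the bin, chr7:19406147-19406176, minus strand: ccactccttCCACCAGATGGCcgcaggact
Arc downstream boundary, left of the bin, chr15:74537498-74537527, minus strand: tcagatggaCCAGCAGGGGGCgctgggata
Npas4 upstream boundary, in the bin, chr19:5015015-5015044, plus strand: agagtggagCCAGCAGGGGGCgggagagat

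At the Fos boundary the matches formed a divergent pair, 2.06 kb to the left and 1.92 kb to the right of the bin. The left one pointed into the Fos domain and the right one away from it. At the Fosb boundary both matches lay outside the Fosb domain, 5.55 and 6.16 kb beyond the bin, and they pointed towards each other. Those at the Arc and Npas4 boundaries pointed away from the members' domains. The Npas4 match was the only one inside a flanking bin, so 1 of 17 bins held a match, against 6.29% of all boundaries. A match is a run of letters and not a measurement of binding, and the boundaries without one may be bound at other sequences.

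Promoter letters were not used in choosing the genes and were searched next. RefSeq windows of 300 bases (250 before the start, GRCm38.p6) were at hand for 6 members, Fos, Fosb, Junb, Npas4, Nr4a1 and Bdnf, and Bdnf had 7 of the 12 windows. The core of the cyclic AMP response element (CRE), TGACG on either strand, occurred in 6 of 12 windows against 20.9% of all 32619 windows. All windows together cover 26794 gene symbols, more than the 21755 protein-coding genes above, so this background is a different set. The core was found in each of the 5 members with 1 window (20.7% of the 22632 symbols with 1 window) and in 1 of the 7 Bdnf windows. TGACG contains a CpG, and the windows of those 5 genes held 20 to 35 CpGs and 58.7 to 72.3% GC, against medians of 7 and 53% over all windows. The part of this base content in the count was not tested. CRE is the site that CREB binds, and its full palindrome, TGACGTCA, occurred in none of the 12 windows (1.80% of all). The stretches with cores are shown for their spacing and strand in the windows that hold them, on the strand of the gene, cores in capitals, with 12 bases on either side.
Fos, chr12:85473749-85473777: ggggcgtagagtTGACGacagagcgcccg
Fos, nearer the start, chr12:85473812-85473840: agttccgcccagTGACGtaggaagtccat
Fosb, chr7:19310089-19310117: tggagttgcgggTGACGcaagcgcggggg
Junb, chr8:84978838-84978866: gcttcctgacagTGACGcgagccgcctcc
Npas4, chr19:4990124-4990162: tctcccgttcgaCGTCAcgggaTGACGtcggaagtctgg
Nr4a1, chr15:101266601-101266649: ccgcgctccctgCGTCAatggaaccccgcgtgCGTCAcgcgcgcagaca
Nr4a1, nearer the start, chr15:101266765-101266822: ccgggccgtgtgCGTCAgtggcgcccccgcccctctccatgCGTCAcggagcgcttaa
Bdnf, chr2:109692389-109692417: tatgacagctcaCGTCAaggcagcgtgga

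The cores began 129 and 66 bases upstream of the start in Fos, 60 in Fosb and 106 in Junb. In Bdnf the core began 35 bases upstream of a start 17.7 kb inside the gene. Nr4a1 had 4 cores, from 233 to 40 bases upstream of its inner start, and Npas4 had a pair at 179 and 169 bases upstream of the RefSeq start. That RefSeq start lies 0.345 kb inside the GENCODE gene, so both Npas4 cores lie downstream of the Npas4 TSS used above. The cores of Npas4 lay on opposite strands and all 4 of Nr4a1 on the reverse strand. No window held a CArG box, the site of serum response factor (1.64% of all windows), or the EGR site GCGTGGGCG (0.616%). An AP-1 site (TGANTCA) was in 1 Bdnf window (7.85% of all). The TATA box TATAAA was in Fos, upstream of the start, and in Junb, where it began at the RefSeq start itself (13.7% of all). That Junb RefSeq start lies 0.03 kb upstream of the Junb TSS used above. These searches say only which letters lie in these windows, and enhancers farther away were not searched.

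Among genes that share a family name with members, Ier3 was the only one at a boundary. The names Fos, Jun, Egr, Nr4a and Ier cover 12 genes beside the members in the lists used here. Of these, 1 of 12 was at a boundary, against 14.3% of all protein-coding genes. The grouping is by symbol, and relatedness in sequence was not examined. Ier3 lay 1.68 kb from a strong one (0.893). The other genes of the Fos family lay 42.5 kb (Fosl1) and 64.2 kb (Fosl2) from a boundary, and Fosl2, like Bdnf, had no other protein-coding gene in its domain, which was 500 kb long. In the Jun family, Jun was 82.2 kb from a strong boundary (1.69) in a 195 kb domain with 1 other gene, and Jund, 88.9 kb from a weak one (0.254), shared 345 kb with 18 others. Egr2, whose protein also acts in myelination, lay farther from a boundary than any member (215 kb), with Egr3 and Egr4 at 57.8 and 68.6 kb. Nr4a2 (44.0 kb, strength 0.390) and Nr4a3 (79.8 kb, 0.445) differed from Nr4a1 in the class of the nearest boundary, which was weak for both.

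Of 48 other immediate early genes, 12 (25.0%) were at a boundary and 7 of these at a strong one. Of all protein-coding genes 14.3% were at a boundary and 9.3% at a strong one when strong boundaries alone were used. The strongest were at the stress response gene Gadd45g (1.20), Ier3 (0.893), the pseudokinase gene Trib1 (0.774), the histone demethylase gene Kdm6b (0.734), the synaptic scaffold gene Homer1 (0.651) and the pluripotency factor gene Klf4 (0.616). Homer1, like Arc, acts at synapses, and its TSS lay 4.64 kb from the bin. The farthest were Ptgs2, which encodes cyclooxygenase-2 (229.97 kb), and Egr2. No gene of that list began inside a bin, as 3.86% of all genes did. Their median distance was 50.9 kb against 56.6 kb over all genes, and 64.6% had a strong nearest boundary against 63.3%. The domains held a median of 1 other protein-coding gene, against 6 for the members and 5 over all genes with a domain.

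Of 40 regulators of these genes, which encode CREB, serum response factor, MEF2, their coactivators, kinases and calcium sensors, 9 (22.5%) were at a boundary and 6 had the TSS in the bin itself, against 14.3% and 3.86% of all protein-coding genes. The strongest were at the kinase gene Mapk3 (0.861), Camk2d (0.690), the acetyltransferase gene Ep300 (0.687), Mef2a (0.654), the calmodulin gene Calm3 (0.565) and Mrtfa (0.483), a coactivator of serum response factor. Rps6ka2 (660 kb) and Rps6ka5 (192 kb), both kinase genes, were the farthest. Creb1 lay 87.6 kb and Srf 36.2 kb from a boundary. Of 12 genes for olfactory transduction or known to depend on activity in these neurons, 1 was at a boundary, the ephrin gene Efna5 (0.617, TSS in the bin), and Hist2h2be (166 kb) and Kirrel2 (132 kb) were the farthest.

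**Figure D5:**
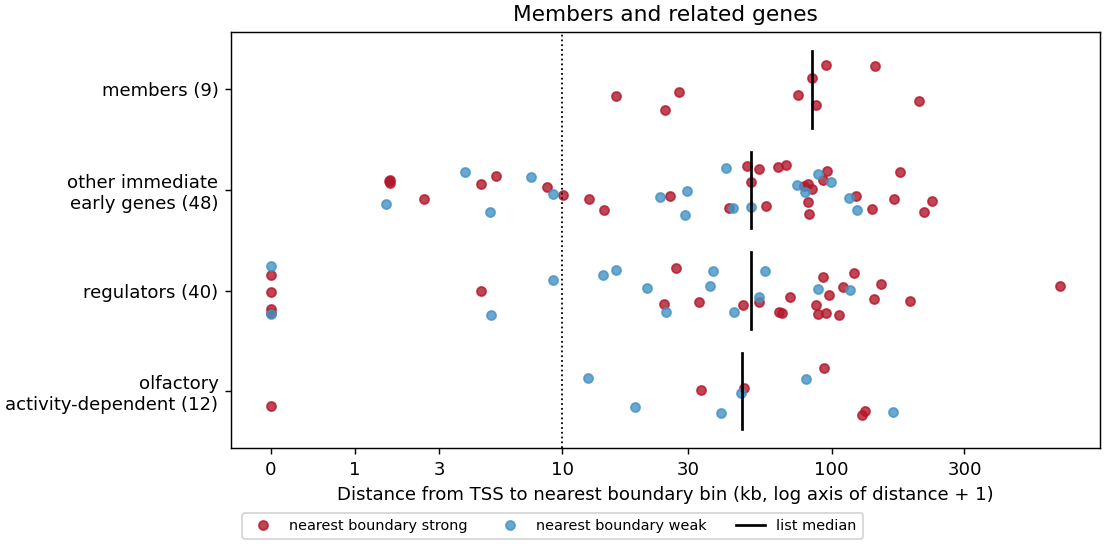
Distance from TSS to nearest boundary bin (kb, log axis of distance + 1) for the 9 members and the lists of 48 other immediate early genes, 40 regulators and 12 olfactory genes, 1 point per gene, coloured by the class of the nearest boundary, with list medians as lines and 10 kb dotted. No member is left of the 10 kb line, where 12, 9 and 1 genes of the other lists lie, and the nearest boundary of all members is strong.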

How the data were processed

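Contacts of both replicates were pooled by the submitters into 1 matrix on GRCm38, from which boundaries were called, per the labels' design text. Caller, version and window: not given in the sources used here. Boundary strength is a score computed by the authors, and it was used only to describe and rank bins within this list. TSSs are the 5′ ends of GENCODE M21 protein-coding genes, promoter and genome sequences are RefSeq GRCm38.p6. Genes that began in a bin (839) or lacked a boundary on one side (203) have no domain. Older symbols were matched through RefSeq synonyms. Lookups were tested on simulated data. Because there is 1 group and 1 pooled list, no test over samples could be made, and members are set beside all protein-coding genes. Members, lists and motifs were chosen with earlier results of these data known. Named were all members, the domain genes (the 4 nearest on each side where over 8) and the TSS nearest each flank. From each list came up to 6 genes at the strongest boundaries and the 2 farthest. Srf, Creb1 and genes that share a family name with members were added. The class of the nearest boundary, the side of each flank and GC content were compared after seeing the values. Alternatives were other windows, strong boundaries alone, other starts, lengths, gene sets, flanks and motif rules. Python 3.11.15, numpy 2.4.6, pandas 2.3.3, pysam 0.24.0 and matplotlib 3.10.9 were used. The annotation at 1 flanking boundary is not reported here.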

Additional observations from a re-analysis of the deposited data

How the results depend on the processing

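No paired analysis was possible because both libraries form a single group, and none could be left out because boundaries came from pooled contacts. Values within 1.5 times of the reported one counted as kept, which held for 18 of 29 alternatives and for all 3 on the nearest boundary, which were added after seeing the data. Widening the window to 25 kb put 2 members (Fos and Npas4), 14 regulators and 3 olfactory genes at a boundary. All genes reached 26.5% there, so that the members were then near the background. Within the bin alone, 0 of the other immediate early genes counted. Strong boundaries alone left 7 of those genes and 5 regulators (9.3% of all genes). With any annotated transcript start, 16 regulators were at a boundary (18.7% of all genes were). The median strength of flanks was 1.10 with strong boundaries alone and 1.14 for the stronger flank. Both settings leave out weaker bins, which by itself raises the median. For the stronger flank the median over all protein-coding genes was 0.949, and 6 of 9 members lay above it. Domains with a CTCF consensus at both flanks numbered 2 at 25 kb (Fosb and Nr4a1), against 17.9% of all domains. With strong boundaries alone there was 1 (Fosb), and the share over all domains was not computed for that setting.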

Other observations

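RefSeq lists 5 enhancers tested in transgenic mouse embryos (VISTA) in the domains of 3 members, and none in the other 6. Of all domains 6.86% held such an element, and 6.18% of protein-coding genes with a domain had one there. With 3 of 9 and no test, these values are a description, and the share over all domains was computed after the members' elements were seen. In the Fos domain 1 of them, active in heart, lay 17.6 kb upstream of the Fos TSS (chromosome 12, 85454400 to 85456289). The Fosb domain held a heart enhancer 9.36 kb upstream of Fosb and a limb and facial enhancer 91.0 kb downstream. The Ier2 domain held one active in midbrain and heart 66.1 kb upstream of Ier2 and one active in limb and face 79.0 kb upstream. The elements are recorded without a target gene, and their activity in olfactory neurons was not measured here.

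Among the 48 other immediate early genes, the longest domain was that of Myc, a growth regulator, which is named here after its values were seen. It was 1140 kb long and held no other protein-coding gene, and the Myc TSS lay 5.39 kb from a strong boundary (0.509).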
